A study of Mus musculus with 6 samples.

Results

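The OAS genes of the mouse encode the oligoadenylate synthetases and their OAS-like relatives, and 8 of them, Oas1a, Oas1b, Oas1c, Oas1g, Oas2, Oas3, Oasl1 and Oasl2, are described here across 6 RNA-seq libraries of cultured macrophages. They were found by gene symbol in the deposited table, and all 8 had a row among 17217 rows. The family was chosen from the levels in the Control and Cd74 knockout libraries, so the difference between these groups is given below for the members as a description, with no test.

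The libraries were made from bone marrow-derived macrophages, cells grown out of mouse marrow with M-CSF, the macrophage growth factor. Of the 6, 3 are labelled Control with genotype Con (CD74+/+ in the protocol) and 3 are labelled Knockout with genotype KO (CD74-/-). All 6 share the remaining treatment in the labels: marrow of 8-week-old mice, 30 ng/mL M-CSF, and 100 ng/mL lipopolysaccharide (LPS), a bacterial cell wall component, for 24 h. The labels name no strain, do not say whether replicates came from separate mice or cultures, and carry protocol text that names wild-type mice as the marrow source for every library. Control libraries are labelled batch 1 and Knockout libraries batch 2, so genotype and batch cannot be told apart in any difference below. P-values then measure only the spread between these samples, which may be technical.

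OAS enzymes bind double-stranded RNA, a sign of viral replication, and polymerise ATP into short chains with 2'-5' bonds, called 2-5A. The chains act as a second messenger of the antiviral response. The genes are induced by type I interferon, which macrophages release after LPS, through the transcription factor complex ISGF3 at a promoter element called the ISRE. Oas1a, Oas1g, Oas2, Oas3 and Oasl2 encode active synthetases. Oasl1 makes no 2-5A and is known as a brake on the translation of IRF7, the transcription factor that amplifies interferon production. Oas1b is the flavivirus resistance gene, whose reading frame is broken in many laboratory strains.

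Of the 12 OAS genes that RefSeq places on chromosome 5, Oasl2 and Oasl1 lie side by side and the other 10 form a second cluster, with Oas2 and Oas3 at one end (order from GRCm38.p6; the submitters' processing notes name GRCm39, so no gene coordinates are given). Oas1c and Oas1b lie head to head on opposite strands. The longest annotated coding sequence, in GENCODE M21, was 1104 bp for Oas1a and for Oas1g, 2256 bp for Oas2, 3417 bp for Oas3, 1536 bp for Oasl1 and 1527 bp for Oasl2. The longer Oas2 and Oas3 proteins carry the OAS unit in tandem repeats, and both OAS-like proteins end in ubiquitin-like domains. GENCODE lists Oas1b as a polymorphic pseudogene, and its reading frame in the reference genome met a stop at codon 253 of 377, whereas the frames of the other 7 members ran to their last codon. The RNA level of Oas1b below therefore says nothing of a full-length protein.

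Sequences upstream of the start sites are shown for the 4 members whose windows hold an ISRE core and for Oasl1, whose window does not, since these genes are known for interferon induction. They are from RefSeq (GRCm38.p6, a build earlier than that of the processing notes), 5' to 3' on the gene's own strand, and end at the base before the start. Capitals mark matches to the ISRE core searched, which is GAAA, any 2 bases and GAAA again, on either strand. The table had a window for 6 of the 8 members, and Oas1b and Oas2 had no entry. Windows are chr5:120907526-120907775 (minus strand) for Oas1a, chr5:120887614-120887863 (minus) for Oas1g, chr5:120777660-120777909 (minus) for Oas3, chr5:120812515-120812634 (minus, the 120 bases between the Oas1c and Oas1b starts) and chr5:114922990-114923142 (plus, the part of the Oasl1 window before its outermost RefSeq start).
Oas1a: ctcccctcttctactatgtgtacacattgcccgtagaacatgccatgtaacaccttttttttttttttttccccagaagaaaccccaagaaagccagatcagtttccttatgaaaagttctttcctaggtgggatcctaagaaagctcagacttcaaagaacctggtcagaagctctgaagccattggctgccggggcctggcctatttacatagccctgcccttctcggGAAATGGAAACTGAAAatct
Oas1g: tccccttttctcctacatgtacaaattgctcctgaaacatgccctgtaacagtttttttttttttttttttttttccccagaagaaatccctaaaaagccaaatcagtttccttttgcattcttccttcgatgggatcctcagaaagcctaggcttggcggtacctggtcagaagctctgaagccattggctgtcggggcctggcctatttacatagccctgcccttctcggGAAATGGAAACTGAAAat
Oas1c: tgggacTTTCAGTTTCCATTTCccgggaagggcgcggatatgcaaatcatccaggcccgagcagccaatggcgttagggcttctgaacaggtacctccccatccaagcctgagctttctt
Oas3: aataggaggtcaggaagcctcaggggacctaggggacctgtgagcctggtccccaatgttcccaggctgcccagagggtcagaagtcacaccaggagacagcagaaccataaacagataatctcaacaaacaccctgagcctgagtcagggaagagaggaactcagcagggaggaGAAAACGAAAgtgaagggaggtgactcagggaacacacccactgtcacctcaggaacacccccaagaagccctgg
Oasl1: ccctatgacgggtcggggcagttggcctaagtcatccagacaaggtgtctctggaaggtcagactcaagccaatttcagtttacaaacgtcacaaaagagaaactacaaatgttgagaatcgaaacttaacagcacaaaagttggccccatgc

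In the 250 bases before the start, an ISRE core was found for Oas1a, Oas1g, Oas1c and Oas3, 4 of the 6 members with a window, and not for Oasl1 or Oasl2. Among all 32851 promoter windows of that length, 2.98% held one. For Oasl1, 97 of the 250 bases lay inside its outermost RefSeq start. The search asked for exact letters in a fixed window, so a window without a match may still hold an ISRE. In Oas1a and Oas1g the cores formed the same run of 16 bases, made of a pair of overlapping matches. The capitals in the Oas1c window are the reverse complement of that run, so on the opposite strand they read toward Oas1b.
Oas1a: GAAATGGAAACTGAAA
Oas1g: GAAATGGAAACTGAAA
Oas1b: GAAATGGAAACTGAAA

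The run began 20 bases before the start of Oas1a, 18 before that of Oas1g and 22 before that of Oas1b. The outermost RefSeq start of Oas1a lies inside the run. Across the whole table the 16 bases occurred in 7 of 32851 windows (0.0213%), which belonged to 5 genes, namely Oas1a, Oas1c, Oas1g and the apolipoprotein L genes Apol9a and Apol9b. The windows of Oas1a and Oas1g matched at 86.9% of 244 aligned bases. A match is a string of letters and shows no binding. The GAS motif TTCNNNGAA, which is palindromic, was found in 1 of the 6 member windows, that of Oas1a, against 7.02% of all windows.

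The table holds TPM, a level scaled by gene length and library, so that genes can be compared with each other. Column sums were 991721 to 998572 TPM, and whole reads could be recovered from the values, 36445462 to 59236599 per library. All 6 values of each of the 8 members were whole reads at the annotated length. Cd74, the targeted gene, stood at 593 to 632 TPM in Control and 63.1 to 65.3 TPM in Knockout, but its values were whole reads at no single length (1 of 28 such rows), so the size of that difference is in doubt. Of 8 macrophage markers, 7 had a row and summed to 7703 to 8344 TPM in Control and 10848 to 12271 TPM in Knockout, most of it the lysozyme gene Lyz2, while Mertk had none.

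Markers of other cells were low or had no row. The plasmacytoid dendritic cell list, for the cells best known for interferon release, summed to 33.3 to 35.7 TPM in Control and 17.9 to 21.1 TPM in Knockout. Of that, 8.57 to 26.5 TPM was Cox6a2, and the defining marker Siglech had no row. The listed genes did not fall as a set. Cox6a2 fell from 25.5 to 10.3 TPM, while Tcf4 went from 8.63 to 9.42 TPM and was not called. Ccr9 and Spib were too low to test. Neutrophil markers summed to 17.6 to 18.1 and 23.8 to 29.3 TPM, with no row for 5 of 8, Ly6g and Elane among them. Of those with a row, Camp was too low to test. The tested ones went opposite ways, S100a8 from 5.01 to 19.0 TPM (limma adjusted p = 0.00142) and Csf3r from 11.9 to 7.39 TPM (0.00732). Conventional dendritic cell markers summed to 5.36 to 8.26 and 6.24 to 7.02 TPM, with no row for Flt3. B cell, erythroid and stromal lists summed to at most 1.25 TPM in any library, and none of the 5 T or NK cell markers had a row. The part of these shifts in the results below was not tested, and in bulk RNA fewer cells of a type and less RNA per cell cannot be told apart.

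The members spanned a wide range of levels in Control cells. Oasl1 was the highest at a mean of 1245 TPM, 3.04-fold above Oas1a at 409 TPM. Oas1g followed at 223 TPM, Oas3 at 162, Oasl2 at 65.9, Oas2 at 58.2, Oas1b at 31.6 and Oas1c at 7.5 TPM. The 3 Control values of each gene lay apart from those of the next in this order, the closest neighbours being Oasl2 and Oas2, 1.13-fold apart. In Knockout cells Oasl1 was again highest at 551 TPM, but only 1.40-fold above Oas1a at 392 TPM. Oas1g (196 TPM) and Oas3 (180 TPM) overlapped in range there, and Oas2 (96.3 TPM) stood above Oasl2 (74.5 TPM).

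**Figure D1:**
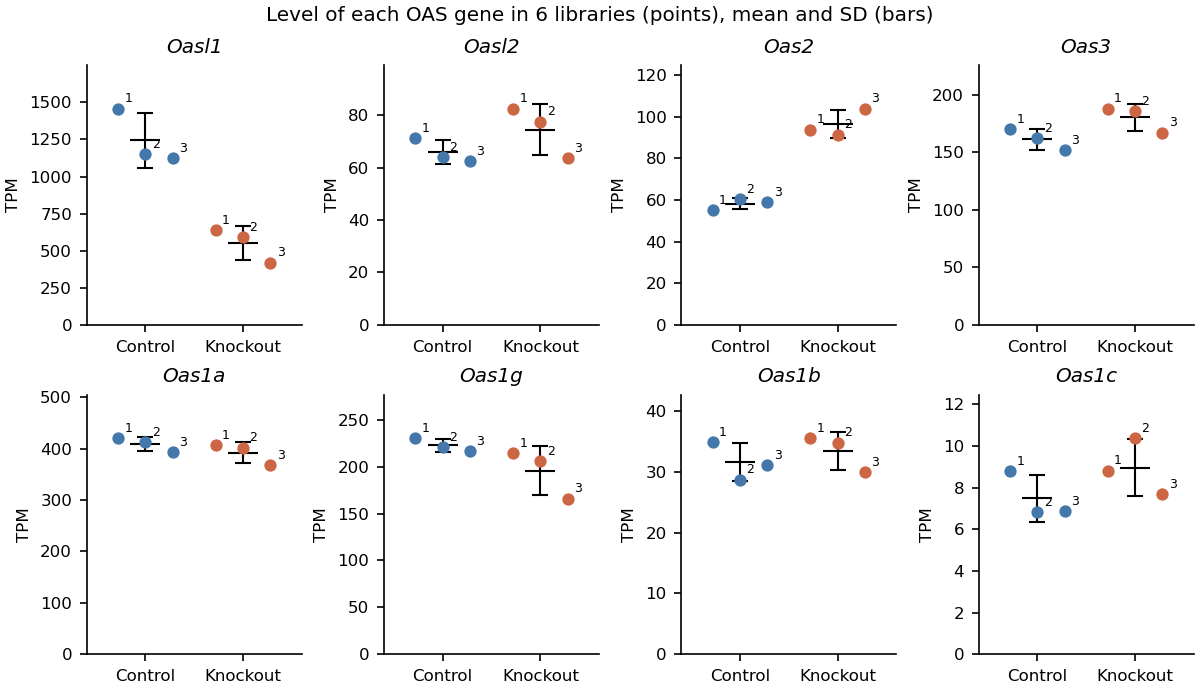
Level in TPM (vertical axis, from 0) of each OAS gene in the 3 Control and 3 Knockout libraries. Points are libraries, numbered by replicate, and bars give the mean and SD. Oasl1 is lower and Oas2 higher in every Knockout library than in any Control library, Oas1g lies just lower, and the ranges of the other 5 genes overlap.

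Oasl1, the brake on IRF7 translation, had levels of 1458, 1150 and 1126 TPM in the Control libraries and of 641, 592 and 419 TPM in the Knockout libraries, here and below in the order of replicates 1, 2 and 3. Every Knockout library was below every Control library, and Control replicate 1 and Knockout replicate 3 were the extremes. The Control mean was 1245 ± 185 TPM and the Knockout mean 551 ± 117 TPM (SD, n = 3 each), 2.26-fold lower in Knockout, with a difference of -1.19 (SE 0.17) on the log2(TPM + 1) scale, which understates changes of low genes. The gene had 18355 to 48147 reads per library, a counting error of at most 0.738%, far under its spread of 14.9% (Control) and 21.2% (Knockout) between replicates. Gm13822, annotated antisense to Oasl1, stood at 58.7, 38.9 and 48.9 TPM in Control and at 37.4, 28.9 and 23.7 TPM in Knockout. Whether counting used strand is not given in the sources used here, so reads of Oasl1 and Gm13822 may be shared.

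Its neighbour Oasl2, which does make 2-5A, stood at 71.2, 64.0 and 62.5 TPM in Control and 82.5, 77.5 and 63.5 TPM in Knockout. The groups overlapped, through Knockout replicate 3. Control averaged 65.9 ± 4.63 TPM and Knockout 74.5 ± 9.88 TPM (SD, n = 3 each), a log2 difference of 0.17 (SE 0.10). Within each library Oasl1 was 20.5, 18.0 and 18.0 times the level of Oasl2 in Control, and 7.77, 7.64 and 6.6 times in Knockout. This ratio does not depend on how libraries are scaled, and its Knockout values all lay below its Control values.

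Oas2, the synthetase with a pair of OAS units, measured 55.2, 60.5 and 59.0 TPM in the Control libraries against 93.9, 91.5 and 104 TPM in the Knockout libraries. It was the 1 member with every Knockout value above every Control value. Control averaged 58.2 ± 2.71 TPM and Knockout 96.3 ± 6.41 TPM (SD, n = 3 each), 1.65-fold higher in Knockout, a log2 difference of 0.72 (SE 0.06). No other OAS gene shared a stretch of 50 bases with its transcripts. Gm43068, annotated on the opposite strand within the gene, was at 2.46 to 4.56 TPM.

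Oas3, the largest synthetase, stood at 170, 162 and 152 TPM in Control and 188, 186 and 167 TPM in Knockout. Knockout replicate 3 lay inside the Control range. The means of 162 ± 9.07 and 180 ± 11.7 TPM (SD, n = 3 each) gave a log2 difference of 0.16 (SE 0.07). Oas2 was 0.325, 0.373 and 0.388 times the level of Oas3 in Control and 0.5, 0.491 and 0.621 times in Knockout, so the balance of these neighbouring genes was apart between the groups.

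Oas1a and Oas1g, near-identical small synthetases, were the most abundant members after Oasl1. Oas1a stood at 421, 413 and 393 TPM in Control and 406, 402 and 368 TPM in Knockout, with overlapping groups and a log2 difference of -0.06 (SE 0.06). Oas1g stood at 231, 221 and 217 TPM in Control and 215, 206 and 166 TPM in Knockout. Its groups were apart by a narrow margin, 217 against 215 TPM, and its log2 difference was -0.20 (SE 0.10).

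The coding sequences of Oas1a and Oas1g were identical at 96.7% of 1104 aligned bases, and 57.6% of the 50-base stretches of Oas1a transcripts, and 40.9% of its 100-base stretches, also occurred in another OAS gene, which was Oas1g. The deposited values may therefore split their reads unequally. Their summed level was 653, 634 and 610 TPM in Control and 621, 609 and 534 TPM in Knockout, again with overlapping groups. Of the other members, Oas1c shared 9.82% of its 50-base stretches with another OAS gene, Oas1b 1.17%, and Oas2, Oas3, Oasl1 and Oasl2 none.

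Oas1b and Oas1c were the lowest members. Oas1b stood at 34.9, 28.7 and 31.1 TPM in Control and 35.6, 34.8 and 29.9 TPM in Knockout, with a log2 difference of 0.08 (SE 0.09). Oas1c stood at 8.81, 6.84 and 6.86 TPM in Control and 8.82, 10.4 and 7.69 TPM in Knockout, with a log2 difference of 0.23 (SE 0.14). Both genes overlapped between the groups. Oas1c rested on 240 to 394 reads per library, a counting error of up to 6.45% beside a spread of 15.1% and 15.4% between replicates.

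Summed over the 8 members, the family held 2451, 2106 and 2048 TPM in Control and 1671, 1601 and 1324 TPM in Knockout. Oasl1 alone made up 56.4 ± 2.71% of that sum in Control and 35.7 ± 3.56% in Knockout (SD, n = 3 each). Without Oasl1 the other 7 genes summed to 957 ± 35.8 TPM in Control and 981 ± 66.8 TPM in Knockout, with overlapping groups. The gap in the family total was thus, in size, that of Oasl1. Oas2 went from 2.67 ± 0.360% to 6.39 ± 1.25% of the family sum.

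**Figure D2:**
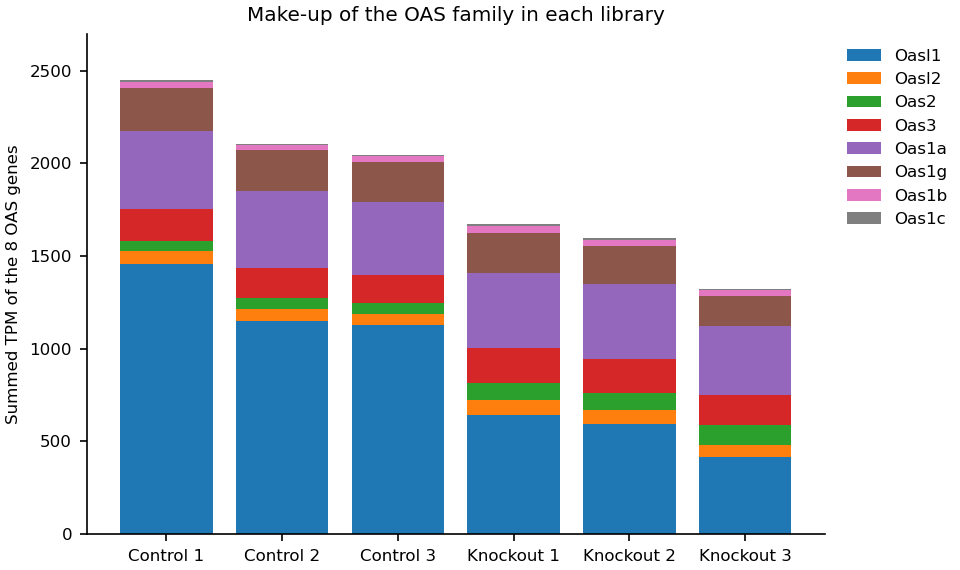
Summed TPM (vertical axis, from 0) of the 8 OAS genes in each library, with 1 colour per gene. Totals are 2048 to 2451 in Control and 1324 to 1671 in Knockout, and the lowest segment, Oasl1, accounts for the drop.

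In the fit of limma on log2(TPM + 1) over 13034 rows, at a Benjamini-Hochberg adjusted p of 0.05, 1 of the 8 members was called higher in Knockout (Oas2) and 1 lower (Oasl1). Of all rows tested, 18.5% were called higher and 10.1% lower, and after median-of-ratios scaling the overall calls were 1821 higher and 1715 lower in place of 2406 and 1313. Values of 1 member were apart and higher and values of 2 were apart and lower, against 30.2% and 19.8% of all tested rows. These calls and counts come from the contrast the family was chosen on, so they are given as a description and are no test of the members. The median difference was 0.12 for the members and 0.04 for all tested rows.

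Within each genotype the libraries also differed in a way most members shared. In 7 of the 8 members, all but Oas2, Control replicate 1 was the highest Control library and Knockout replicate 3 the lowest Knockout library. Oas2 was the reverse, lowest in Control replicate 1 and highest in Knockout replicate 3. Of all tested rows 20% had the first pattern and 22.1% the second. Control replicate 1 was also the shallowest library. Relative to the mean of the other Knockout libraries, replicate 3 was at 0.679 for Oasl1, 0.786 for Oas1g, 0.793 for Oasl2, 0.799 for Oas1c, 0.851 for Oas1b, 0.892 for Oas3 and 0.910 for Oas1a, and at 1.12 for Oas2.

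After each gene's group mean was subtracted, Oasl1 and Oasl2 varied together over the 6 libraries (Pearson r 0.99), and Oas1a with Oas3 likewise (0.99), while Oas2 ran against the other 7 members (-0.95 to -0.82). These are descriptions over 6 libraries that share scaling to a fixed sum. Among 21 tested interferon-stimulated effector genes outside the family, the first pattern held for 14 and the second for 1. Among 14 genes of interferon signalling it held for 8 and among 16 genes of double-stranded RNA sensing and its effectors for 8. Among 5 tested 2-5A pathway genes it held for 1 and the reverse for 2.

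**Figure D3:**
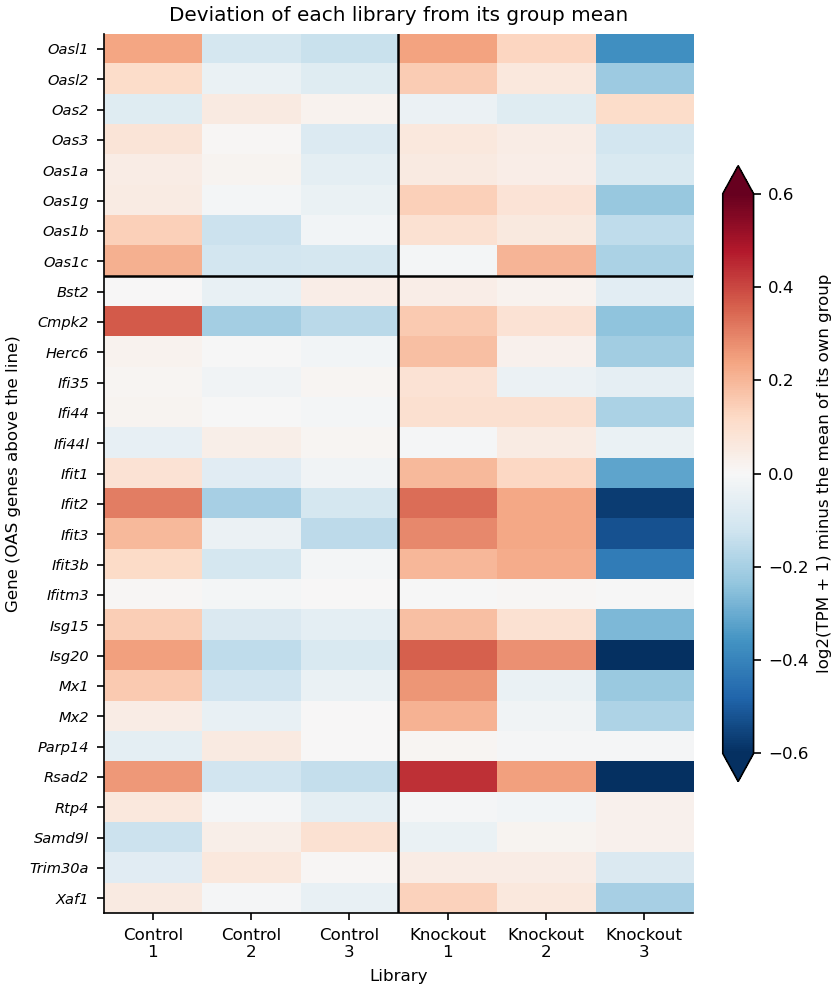
Deviation of log2(TPM + 1) in each library (columns) from the mean of its own group, for the 8 OAS genes above the line and 21 interferon-stimulated effector genes below it. Red is above and blue below the group mean, and values beyond the scale take its end colour. Control replicate 1 is red and Knockout replicate 3 blue for 7 of the 8 OAS genes, and Oas2 is the reverse.

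By likeness over the 6 libraries, the rows closest to the mean standardised profile of the family were Zbp1, a sensor of unusual nucleic acids (Pearson r 0.993), Slc46a1 (0.987), Pkn3 (0.984), Nek9 (0.982) and Irf7 (0.981). Closest to Oasl1 were the mitochondrial protease gene Lonp1, the cytokine gene Tnf (both 1.000 to 3 decimals), the histidine decarboxylase gene Hdc, Tecpr1 and the NF-kB inhibitor gene Nfkbib (0.999 each). Closest to Oas2 were the oxygen sensor gene Egln1, Dmpk and Xxylt1 (0.999 each), then Atrn and Tfap4 (0.998 each). All these values rest on the same 6 libraries in 2 groups and carry no test.

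The 2-5A pathway beyond the members was examined in a list of 8 genes, among them the Oas1 genes Oas1d, Oas1e, Oas1f and Oas1h. Of the 8 genes, 5 were tested. Of these 1 rose (20% against 18.5% of all tested rows) and 0 fell (0% against 10.1%) in Knockout. Their median difference was -0.26 against 0.04 for all tested rows. That median is the value of Oas1h, an OAS gene at 1.68 to 3.58 TPM, and not of a gene acting after 2-5A. Abce1, whose product is needed for ribosome recycling, rose from 163 ± 7.10 to 196 ± 15.4 TPM (SD, n = 3 each), a log2 difference of 0.26 (SE 0.07, limma adjusted p = 0.0276). That call was lost after median-of-ratios scaling (adjusted p = 0.0583) and without Control replicate 1, 2 or 3 or Knockout replicate 2 (0.0544 to 0.0870).

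Both enzymes that break down 2-5A were not called. Pde12 was at 15.8 ± 0.163 and 18 ± 1.2 TPM (limma adjusted p = 0.0827) and Akap7 at 8.60 ± 1.72 and 6.84 ± 0.895 TPM (0.197). Oas1h, a further member of the Oas1 cluster, was at 1.68 to 3.58 TPM with a difference of -0.26 (SE 0.20) and was not called. Oas1d was at 0.0632 to 0.441 TPM, 2 to 14 reads, and too low to test, and Oas1e and Oas1f had no row.

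**Figure D4:**
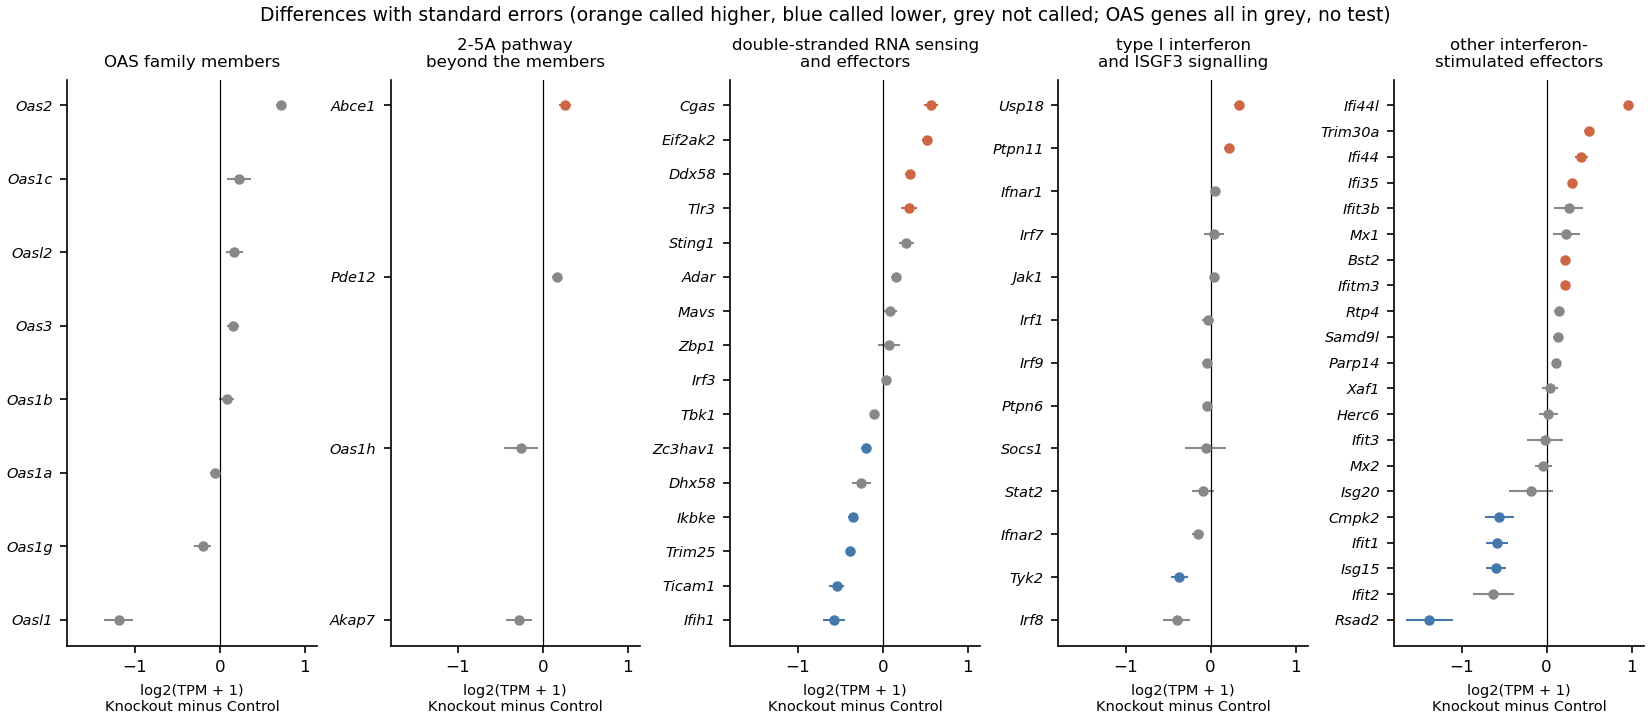
Difference between Knockout and Control on the log2(TPM + 1) scale (horizontal axis), with its standard error, for the OAS genes and for genes of 4 related lists that are reported here. Orange was called higher and blue lower by limma, grey was not called, and OAS genes are all grey because they are described without a test. The OAS genes run from -1.19 for Oasl1 to 0.72 for Oas2, with the other 6 between -0.20 and 0.23.

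The list of double-stranded RNA sensing and effectors holds sensors of the OAS ligand, their adaptors and kinases, and the DNA-sensing genes Cgas and Sting1. Of 16 tested, 4 rose (25% against 18.5% of all tested rows), 5 fell (31.2% against 10.1%) and 7 were not called, with a median difference of 0.05. Cgas, whose product has the same nucleotidyltransferase fold as OAS but responds to DNA, rose from 30.2 ± 2.15 to 45.3 ± 4.00 TPM (log2 difference 0.57, SE 0.08, limma adjusted p = 0.00478). Eif2ak2, the kinase PKR that halts translation on double-stranded RNA, rose from 93.7 ± 5.23 to 135 ± 7.31 TPM (0.52, SE 0.06, adjusted p = 0.00307). Ifih1, the long-RNA sensor MDA5, fell from 101 ± 8.13 to 68.4 ± 11.8 TPM (-0.57, SE 0.13, adjusted p = 0.0167), a call lost without Control replicate 1 (0.0613). The sensor genes Ddx58 and Tlr3, given here after their values were seen, went the other way. Ddx58, the sensor RIG-I, rose from 91.0 ± 2.10 to 114 ± 6.52 TPM (0.32, SE 0.06, adjusted p = 0.00819). Tlr3, the endosomal sensor, rose from 12.4 ± 0.925 to 15.6 ± 1.39 TPM (0.31, SE 0.09, adjusted p = 0.0373), a call lost with no filter and without any 1 library other than Knockout replicate 3. The adaptor gene Ticam1 fell by 0.54, the ubiquitin ligase gene Trim25 by 0.38 and the kinase gene Ikbke by 0.35 on the log2 scale.

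In the signalling that induces OAS genes, 14 genes were tested: 3 rose, 1 fell and the remaining 10 did not pass, and their median was -0.03. Those shares, 21.4% and 7.14%, were near the 18.5% and 10.1% of all tested rows. Stat2 was at 62.8 ± 4.94 and 59.5 ± 11 TPM and Irf9 at 41.5 ± 0.298 and 40.3 ± 2.99 TPM, neither called. Usp18, a brake on the interferon receptor, rose by 0.33 (SE 0.05, adjusted p = 0.00555), and Ptpn11 by 0.21.

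The receptor kinase gene Tyk2 fell by 0.37 on the log2 scale (SE 0.10, limma adjusted p = 0.0323), a call lost without Control replicate 1, 2 or 3 or Knockout replicate 2. For Ptpn11 the call went when Control replicate 1 or 3 or Knockout replicate 2 was left out. The receptor genes Ifnar1 and Ifnar2 were not called, at 48.6 ± 0.972 and 50.3 ± 1.27 TPM and at 42.7 ± 2.05 and 38.5 ± 2.56 TPM. Irf7, whose translation OASL1 restrains, was at 513, 451 and 441 TPM in Control and 545, 516 and 394 TPM in Knockout. Its groups overlapped and it was not called (0.04, SE 0.12). Ifnb1, the gene of interferon beta, had no row.

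Other interferon-stimulated effector genes also went both ways, 6 of 21 tested up (28.6% against 18.5% of all tested rows), 4 down (19% against 10.1%) and 11 not called, with a median of 0.11. Rsad2, the antiviral enzyme viperin, fell from 615 ± 99.5 to 246 ± 89.4 TPM (SD, n = 3 each), a log2 difference of -1.38 (SE 0.28, limma adjusted p = 0.0123). Isg15 fell by 0.60, Ifit1 by 0.58 and Cmpk2, the neighbour of Rsad2, by 0.56 on the log2 scale. The call of Ifit1 went when Control replicate 1 or 3 was left out, and that of Cmpk2 with no filter and when any 1 of the 6 libraries was left out. Ifi44l rose from 74.9 ± 2.20 to 147 ± 4.41 TPM (0.96, SE 0.05, adjusted p = 2.36e-04) and Trim30a from 117 ± 5.71 to 166 ± 8.56 TPM (0.50, SE 0.06). 

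Effector genes with an ISRE core in the window were found in both directions. Of 18 effector genes with a promoter window, 8 held a core. Of those 2 rose (Bst2, Trim30a), 3 fell (Rsad2, Isg15, Ifit1), 2 were not called and 1 was too low to test. Of all tested rows, 18.5% were called higher and 10.1% lower. Of the effector genes without a core, Ifi44l, Ifi44, Ifi35 and Ifitm3 were called higher. Only Cmpk2 was called lower, a call that was lost when any 1 library was left out. The call of Bst2 was lost without Control replicate 2 or Knockout replicate 1 or 2. Apol9a and Apol9b, the other genes with the 16-base run shown above for Oas1a, Oas1g and Oas1b, were picked by that sequence alone. Apol9a stood at 17.4, 16.6 and 17.2 TPM in Control and 30.5, 29.8 and 30.3 TPM in Knockout, a log2 difference of 0.79 (SE 0.05, limma adjusted p = 4.41e-04). Apol9b differed by 0.92 (SE 0.09, adjusted p = 0.00246), and these are close copies whose reads may be shared. Oas1a, Oas1g, Oas1b and Oas1c, whose upstream sequence holds the same 16 bases, differed by -0.20 to 0.23.

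Of 21 tested genes around the family on chromosome 5, 6 rose and 2 fell, where 18.5% and 10.1% of all tested rows did. For the Oasl1 and Oasl2 pair, 3 of 11 tested neighbours rose and 1 fell. The 1 that fell was Gm13822 (-0.69, SE 0.19), which lies within the pair, antisense to Oasl1, and may share its reads. No gene flanking that pair was called lower. Beside the larger cluster, 3 of 10 rose, among them Tpcn1 (0.64), and 1 fell, Rasal1 (-0.61).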

How the data were processed

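Per the labels, total RNA of 6 LPS-treated macrophage cultures was sequenced on an Illumina instrument. The authors deposited 1 table of TPM values for 17217 rows and 6 libraries, with 0 unmapped columns. The unit was read from the values. The build GRCm39 and the tool DESeq2 stand in the authors' list, per the submitters' processing notes, which give neither a role. The aligner, the counting tool and the use of strand are not given in the sources used here.

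Reads were recovered as TPM times union exon length (GENCODE M21) over the library's step. At a tolerance of 0.02 read, 16503 rows (95.9%) were whole at the annotated length, 686 more at another length, and 28 at none. Since lengths came from outside, TPM were tested with limma 3.58.1 in R 4.3.3 (trend, robust) on log2(TPM + 1), for 13034 rows of mean TPM of at least 1, with two-sided p-values adjusted by Benjamini-Hochberg across every tested row. The script was tested on simulated data. 

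Members, lists and the naming rule were chosen with earlier results of these data known. Named were all members, all 2-5A pathway genes, the 6 largest called changes per other list with ISGF3 and receptor genes, Eif2ak2 and Cgas. The rule also covered the 5 rows most like the family or a member, and 5 tested neighbours on each side. Rows by likeness are printed only for the family mean, Oasl1 and Oas2, not for the other members. Of the flanking neighbours only Tpcn1, Rasal1 and Ptpn11 are named, and the others enter the counts. Rigi is listed as Ddx58. Ddx58, Tlr3 and the markers S100a8, Camp, Csf3r, Tcf4, Ccr9 and Spib were added after their values were seen. Symbols of Apol9a and Apol9b, and of Gm13822, were named after the sequence and overlap searches. Bst2, Ifi44, Ifi35 and Ifitm3 were named for their call beside the motif search. Alternatives were pseudocount 0.1, no filter, a filter of 5 TPM, median-of-ratios scaling, limma-voom on recovered reads, a replicate block and each library left out. The table without the 28 rows was added after the data were seen. Some genes of the lists enter the counts and are not reported here by name.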

Additional observations from a re-analysis of the deposited data

How the results depend on the processing

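The 8 members kept the sign of their difference in all 13 alternatives. Oasl1 ranged from -1.31 to -1.0, Oas2 from 0.66 to 0.75 and Oas1g from -0.27 to -0.08. Oas3 ranged from 0.11 to 0.21 and Oasl2 from 0.09 to 0.28. These ranges describe the contrast the family was chosen on and carry no test. Over all rows, limma called 2406 higher and 1313 lower. With 1 library left out in turn, 1312 to 2094 were higher and 666 to 1222 lower. Limma-voom on recovered reads called 2062 higher and 1989 lower. The share of calls that were higher was 64.7% as deposited, 51.5% after median-of-ratios scaling and 50.9% under voom. For the 2-5A pathway, median-of-ratios scaling gave 0 higher in place of 1. It gave 1 lower in place of 0, as did the filter of 5 TPM, voom and the replicate block. With a library left out, 0 to 1 were higher and 0 to 1 lower. For interferon signalling 1 to 3 were then higher and 0 to 1 lower, and the effector genes held 2 to 3 lower in place of 4. Of 57 genes, the pathway lists and Cd74, 15 changed their call in some alternative and 0 reversed. Causes were not tested beyond the fewer samples of those fits.

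Same-numbered libraries did not deviate together (correlations 0.13, -0.08 and 0.03), and not every library correlated best with its own number. These values give no sign of pairing by number. They cannot exclude a shared origin of same-numbered libraries, which the labels do not give. The replicate block gave 2331 higher and 1380 lower calls in all, and 2 lower in place of 1 among interferon signalling genes. Depth limits Oas1d, Oas1h and Oas1c most.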
